A study of Mus musculus with 36 samples.

Results

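A set of 9 genes was examined as a readout of steroid and metal signalling in the lung, 7 that respond to glucocorticoids (Tsc22d3, Fkbp5, Zbtb16, Sgk1, Dusp1, Klf9 and Errfi1) and the 2 widely expressed metallothioneins Mt1 and Mt2. They were chosen with earlier results of these data known, so counts of called members are a description. They were taken by symbol from the array's probe annotation, and 9 of 9 were found among the 19938 genes measured. Each had 1 probe set, and 9 of 9 passed the filter on dim genes that left 14953 genes for testing. Total RNA from mouse lung was hybridised to 36 whole-transcript arrays, 2 for each of 18 groups. The groups were NNK-treated A/J at weeks 3, 6, 9 and 12, untreated A/J at weeks 0, 3, 6, 9 and 12, NNK-treated C3H at weeks 3, 6, 9 and 12, and untreated C3H at weeks 0, 3, 6, 9 and 12. NNK, a nitrosamine of tobacco that causes lung tumours in mice, was injected at 100 mg/kg weekly for 4 weeks, and weeks are counted after exposure. A/J is known as a strain prone to lung tumours and C3H as a more resistant one. Age, sex and a vehicle injection for the untreated mice are not given in the labels used here. Nor do they state that paired arrays were taken from different mice, so the p-values measure only the spread between these arrays, which may be technical.

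Glucocorticoids bind the glucocorticoid receptor in the cytoplasm, and the receptor moves to the nucleus and binds response elements near its target genes. This signalling matures the lung before birth and restrains inflammation in the adult. Metallothioneins are small cysteine-rich proteins that bind zinc and other metals, and their genes are switched on by the zinc-sensing factor MTF1 through metal response elements and also by glucocorticoids. Many glucocorticoid targets follow the daily rhythm of the hormone, and several are also clock-controlled.

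The promoters of the members were read for the elements of these pathways. Those of Mt1 and Mt2 are shown because both genes were higher in NNK-treated A/J lungs. Those of Sgk1 and Dusp1 are shown as examples of a full element, glucocorticoid in Sgk1 and cyclic AMP in Dusp1. RefSeq windows on GRCm38.p6, from 250 bases before a start site to 50 after it, were matched for 8 of 9 members (16 windows in all), and Zbtb16 was not among them. Below, the 250 bases before the window's start site and the 30 bases from it on are printed 5′ to 3′ on the gene's strand. The named element is in capitals. In the Mt1 and Mt2 windows the capitals mark the metal response element core, TGCACNC or TGCGCNC on either strand. In the Sgk1 window they mark the full palindromic glucocorticoid response element, and in the Dusp1 window the cyclic AMP response element TGACGTCA. The windows lie at chr8:94178839-94179118 (plus strand) for Mt1, chr8:94172368-94172647 (plus strand) for Mt2, chr10:21993640-21993919 (plus strand) for Sgk1 and chr17:26508443-26508722 (minus strand) for Dusp1.
Mt1: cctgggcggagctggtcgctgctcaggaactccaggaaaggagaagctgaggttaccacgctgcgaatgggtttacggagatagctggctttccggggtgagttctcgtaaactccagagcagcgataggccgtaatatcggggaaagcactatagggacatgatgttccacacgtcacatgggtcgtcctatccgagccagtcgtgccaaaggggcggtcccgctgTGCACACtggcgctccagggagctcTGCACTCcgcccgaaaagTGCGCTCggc
Mt2: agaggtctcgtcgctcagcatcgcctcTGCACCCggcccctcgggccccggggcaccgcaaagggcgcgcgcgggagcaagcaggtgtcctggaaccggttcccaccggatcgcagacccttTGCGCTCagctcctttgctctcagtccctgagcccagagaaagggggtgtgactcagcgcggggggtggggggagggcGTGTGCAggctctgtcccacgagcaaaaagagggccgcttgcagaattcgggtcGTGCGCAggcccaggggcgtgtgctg
Sgk1: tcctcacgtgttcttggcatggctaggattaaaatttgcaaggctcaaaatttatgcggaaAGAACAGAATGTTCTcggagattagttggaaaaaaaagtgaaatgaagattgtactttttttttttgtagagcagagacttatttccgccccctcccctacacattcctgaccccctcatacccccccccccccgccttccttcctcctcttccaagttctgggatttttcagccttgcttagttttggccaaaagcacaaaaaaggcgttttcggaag
Dusp1: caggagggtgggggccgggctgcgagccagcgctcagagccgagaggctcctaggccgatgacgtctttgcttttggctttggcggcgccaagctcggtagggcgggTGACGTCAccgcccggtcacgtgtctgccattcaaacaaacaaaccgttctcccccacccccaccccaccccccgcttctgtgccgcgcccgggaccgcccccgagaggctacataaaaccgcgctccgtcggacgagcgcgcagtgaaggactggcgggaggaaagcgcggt

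Positions count the first base at the window's start site as 1 and the base before it as -1. The 3 metal response element cores of Mt1 began at -23, 3 and 21. The annotated Mt1 gene begins at chr8:94178883, before that start site, so part of the printed bases before the site lies within the gene. The 4 cores of Mt2 began at -223, -128, -50 and 5, the last 2 on the opposite strand. At least 1 core was present in 25.7% of all 32851 windows, at least 3 in 1.97% and at least 4 in 0.517%, so both metallothionein windows were dense in it. The Sgk1 element ran from -189 to -175 in 1 of the gene's 6 windows, and 3 of 32851 windows (0.00913%) held this full palindrome. Its arms overlap the glucocorticoid half-site AGAACA, which occurred in 19.0% of windows on either strand. The Dusp1 element began at -143, and Errfi1 had the same element at -51 in 1 of its windows, against 1.79% of all windows. These matches describe the letters in the windows and show no binding.

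The lung label held in every array. The mean log2 level of 8 lung genes (surfactant, club cell, alveolar, endothelial and macrophage genes) lay between 12.83 and 13.11 in the 36 arrays. Genes of cornified skin did not belong to that pattern, and their list mean (8 genes measured) was 9.13 to 11.01 in 3 untreated A/J arrays, namely both at week 6 and array 2 at week 0, and at most 8.11 in the other 33 arrays. Lists for red cells, heart, fat and liver also varied among arrays, from 9.32 to 11.89, 9.65 to 11.76, 7.85 to 10.39 and 7.53 to 8.96. In whole lung, fewer cells of a type and less RNA per cell cannot be told apart. All values below are log2(intensity + 16) after quantile normalization, a scale that understates changes of dim genes, and a level of 1 gene is not set against that of another. A call means an adjusted p under 0.05 from 1 limma fit to all 36 arrays.

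**Figure D1:**
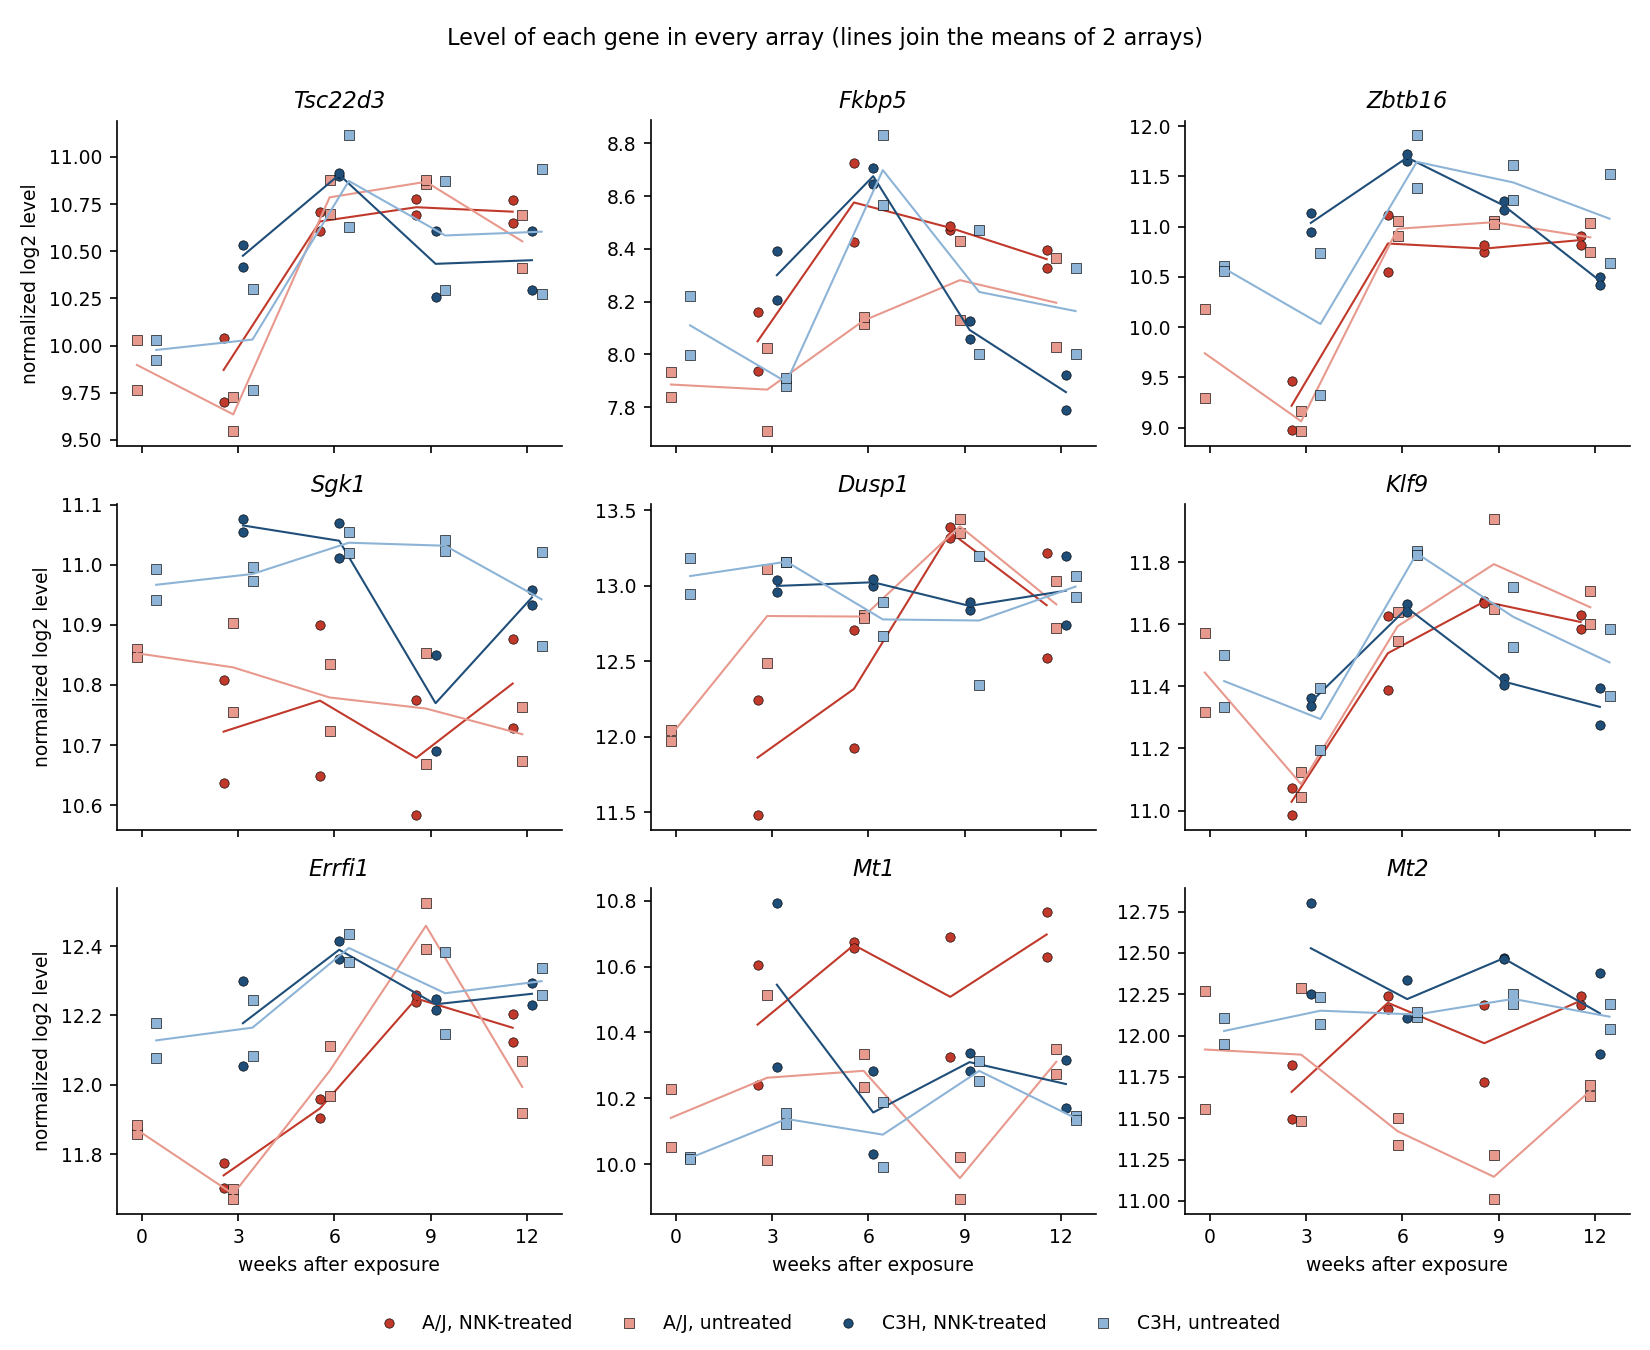
Normalized log2 level (vertical axes, a separate scale for each gene) of the 9 members in each of the 36 arrays by weeks after exposure. Circles are NNK-treated and squares untreated arrays, A/J in red and C3H in blue, shifted slightly sideways, and lines join the means of 2 arrays. Tsc22d3, Zbtb16 and Errfi1 in A/J lie lower at weeks 0 and 3 than later, and Mt1 in NNK-treated A/J lies above 10.5 in 6 of 8 arrays.

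The comparison of NNK-treated with untreated A/J lungs asks which members move with the carcinogen in the tumour-prone strain. Both metallothioneins and Fkbp5 were higher after NNK, and none of the other 6 members passed the test. So 3 of 9 members rose and 0 fell, while 10% of all genes tested were called, 7.44% upward and 2.6% downward. No member was free of overlap between the 8 NNK-treated and the 8 untreated arrays of weeks 3 to 12, as 0.461% of all genes were. The median change of the 7 glucocorticoid members was -0.03, beside 0.015 for all genes, so the glucocorticoid members as a group stayed near the middle of the array.

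Mt1 had a level of 10.24 to 10.77 (median 10.64) in the 8 NNK-treated A/J arrays, against 9.89 to 10.51 (median 10.25) in the 8 untreated A/J arrays of the same weeks. In all, 6 of the 8 NNK-treated arrays lay above every untreated one, and the remaining 2 fell inside the untreated range. The change was 0.37 ± 0.08 (SE, n = 8 against 8), a 1.29-fold rise, with a limma adjusted p of 0.00347. It was present in each week, at 0.16, 0.38, 0.55 and 0.39 for weeks 3, 6, 9 and 12, though no single week passed the test (limma adjusted p 0.0657 to 0.724). Mt1 remained called in 36 of 36 fits that each left out 1 array.

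Mt2 had 11.50 and 11.82 at week 3, 12.16 and 12.24 at week 6, 11.72 and 12.19 at week 9, and 12.19 and 12.24 at week 12 in NNK-treated A/J. Untreated A/J had 11.48 and 12.29 at week 3, 11.34 and 11.50 at week 6, 11.01 and 11.28 at week 9, and 11.63 and 11.70 at week 12. From week 6 on, each NNK-treated array lay above both untreated arrays of its week, whereas at week 3 both lay between the 2 untreated arrays. The change over the 4 weeks was 0.48 ± 0.11 (SE), or 1.39-fold, with a limma adjusted p of 0.0109. By week it was -0.23, 0.78, 0.81 and 0.54, and week 6 alone passed (limma adjusted p 0.0413, where 7.27% of all genes were called). The week 6 value was measured against the 2 untreated arrays with skin genes, whose part in it was not tested. Without week 6 and the week 0 array with skin genes the Mt2 change was 0.38 (adjusted p 0.118, with 0.0069 to 0.118 over the 11 alternatives).

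Saa3, an acute-phase serum amyloid gene made in inflamed lung, was not at a flat level in these arrays. It stood at 10.42 and 11.76 in NNK-treated A/J at week 6 and at 12.32 in array 2 of untreated A/J at week 3. The remaining 15 A/J arrays ranged over 7.30 to 9.26. That untreated week 3 array also had the highest Mt1 (10.51) and Mt2 (12.29) of the untreated A/J arrays. Array 2 of untreated A/J at week 0 had nearly the same Mt2 (12.27). The highest Mt1 of the A/J arrays (10.77) came from array 2 of NNK-treated A/J at week 12. Both of these arrays were among the 15 with lower Saa3. The part of Saa3 or of inflammation in the metallothionein values was not tested.

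Fkbp5, which encodes a co-chaperone that lowers the receptor's affinity for hormone and is itself induced by it, had 7.94 to 8.72 (median 8.41) in NNK-treated A/J and 7.71 to 8.43 (median 8.12) in untreated A/J. Above all untreated arrays lay 3 of the 8 NNK-treated ones, and the rest overlapped. The change was 0.25 ± 0.08 (SE), 1.19-fold, with a limma adjusted p of 0.0402. The call was lost in 11 of 36 fits that left out 1 array (0.21 to 0.29 over the 36, adjusted p 0.0139 to 0.114) and in 5 of 10 other settings (adjusted p 0.0354 to 0.29). The single arrays were array 1 at week 3, both at week 6, array 1 at week 9 and array 2 at week 12 of untreated A/J, and array 2 at week 3, array 1 at week 6 and both at weeks 9 and 12 of NNK-treated A/J. The settings included the fit without week 6 and the skin-bearing week 0 array, where it was 0.18 with an adjusted p of 0.29.

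Dusp1, a phosphatase that switches off MAP kinases, ran the other way at the early weeks without passing the test. In NNK-treated A/J it had 11.48 and 12.24 at week 3 and 11.92 and 12.71 at week 6, against 12.49 and 13.11 and then 12.79 and 12.81 in untreated A/J. At both weeks each NNK-treated array lay below both untreated ones, and at weeks 9 and 12 the arrays overlapped. The mean change was -0.37 ± 0.14 (SE; limma adjusted p 0.0877), and by week -0.94, -0.48, -0.04 and -0.01. Leaving out array 1 of NNK-treated A/J at week 3, array 2 at week 6 or array 2 at week 12 brought it past the threshold, at -0.46, -0.46 and -0.45 (adjusted p 0.0338, 0.0276 and 0.0482). The changes of Tsc22d3, Zbtb16, Sgk1, Klf9 and Errfi1 lay between -0.08 and 0.03, with limma adjusted p from 0.347 to 0.872.

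**Figure D2:**
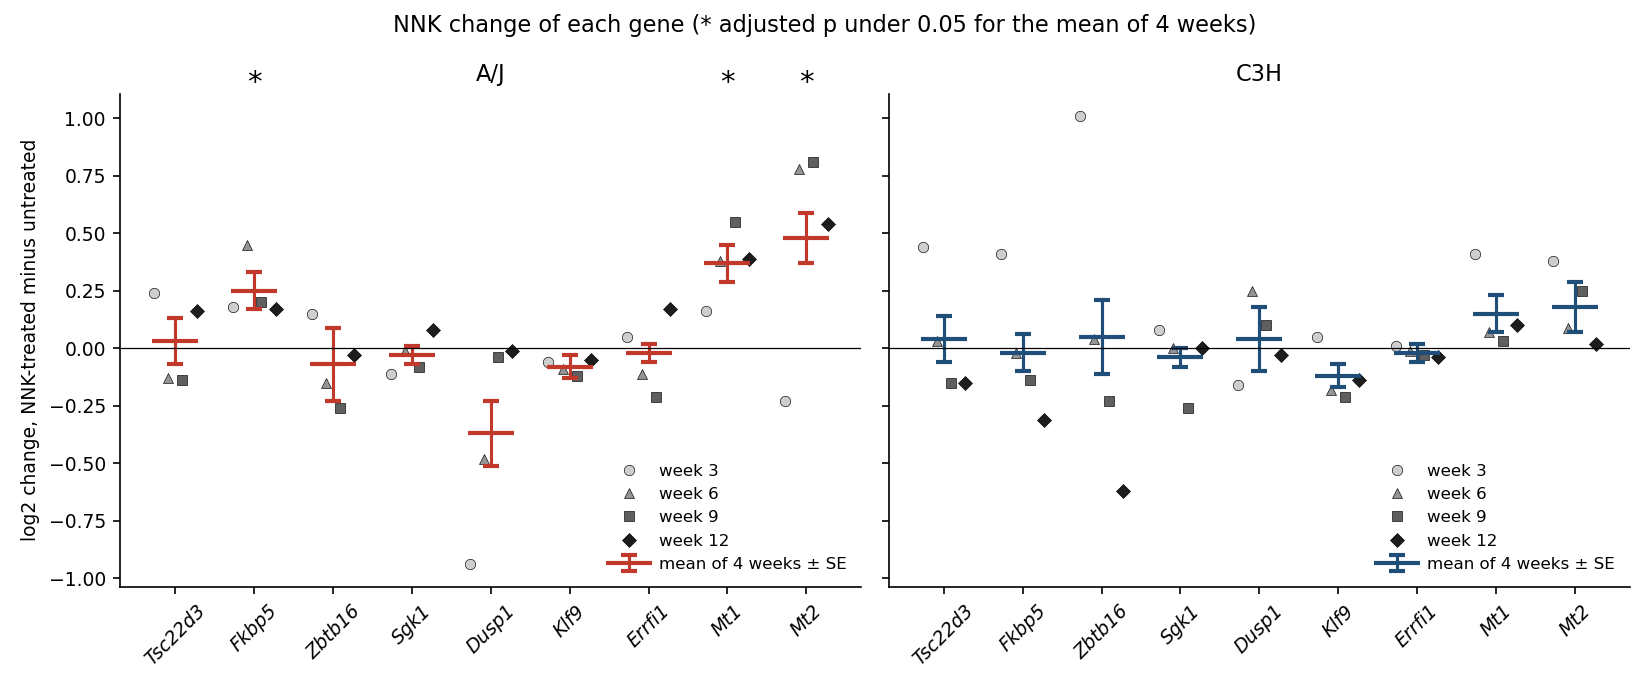
Log2 change with NNK (vertical axis, NNK-treated minus untreated) of the 9 members in A/J (left) and C3H (right). Small symbols are the 4 weeks, each from 2 against 2 arrays, bars are the mean of the weeks ± SE, and an asterisk marks an adjusted p under 0.05. Mt1, Mt2 and Fkbp5 are marked in A/J, at 0.37, 0.48 and 0.25, and no member is marked in C3H.

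Genes around these pathways were counted from lists written with earlier results of these data known. That choice may have shaped the counts here and below, so they describe the lists and test nothing about them. For this comparison 7.44% of all genes rose and 2.6% fell. Of 10 tested genes of the receptor and its ligand supply 0 were called, and Nr3c1, the glucocorticoid receptor, changed by -0.09 (limma adjusted p 0.0908). Of 20 genes of zinc and metal handling 3 rose: Gclc, which makes the limiting enzyme of glutathione synthesis, by 0.25, the zinc importer Slc39a4 by 0.24, and Mtf1, the metal-sensing factor, by 0.16. The nervous-system metallothionein Mt3 had a change of -0.21 (adjusted p 0.0699) and the epithelial Mt4 one of -0.06 (0.682). Of 29 other glucocorticoid targets 3 rose and 2 fell (list median -0.02), and the share that rose was near that of all genes. Those that rose were Mfsd2a, a lysolipid transporter, by 0.95, Lcn2, an iron-carrier trap of the acute phase, by 0.55, and Anxa1, an anti-inflammatory annexin, by 0.26. Txnip fell by 0.21 and Angptl4 by 0.39. Of 10 acute-phase genes 3 rose, Lrg1 by 0.90, Lcn2 as above and Orm1 by 0.40. The list medians were 0.05 for zinc and metal handling and 0.32 for the acute phase, against 0.01 for all genes. The clock genes Per2 and Per3 rose by 0.28 and 0.16, the only calls among 11 clock genes. None of 12 immediate-early genes, which answer to growth and stress signals within minutes, was called (list median -0.09). A neutrophil list (7 genes) averaged 8.14 to 9.76 (median 8.34) in NNK-treated A/J and 7.83 to 8.55 (median 8.08) in untreated A/J of the same weeks, and a red cell list (2 genes measured) 9.32 to 11.89 (median 9.97) and 9.64 to 10.59 (median 9.91). The highest value of both lists came from array 1 of NNK-treated A/J at week 6, which also had the highest Fkbp5 level of the A/J arrays (8.72). The part of these cells in the members' values was not tested.

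In C3H, 0 of 9 members were called by limma after NNK, where 0.0803% of all genes were. An unadjusted p under 0.05 was found for 1 member (Klf9, -0.12) and for 936 of the 14953 genes tested. Mt1 stood at 10.03 to 10.79 (median 10.29) in NNK-treated C3H and 9.99 to 10.31 (median 10.15) in untreated C3H of the same weeks. Its change was 0.15 ± 0.08 (SE; adjusted p 0.815). Mt2 stood at 11.89 to 12.80 (median 12.36) in NNK-treated C3H and 12.04 to 12.25 (median 12.17) in untreated C3H, with 6 of 8 NNK-treated arrays above every untreated one, and changed by 0.18 ± 0.11 (SE; adjusted p 0.871). The highest Mt1 (10.79) and Mt2 (12.80) values of the C3H arrays came from array 1 of the NNK-treated week 3 group, which also had the highest Saa3 level (13.33).

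At week 3 in C3H the median difference of the 7 glucocorticoid members was 0.08, and Zbtb16, Tsc22d3 and Fkbp5 lay furthest above it. Zbtb16, a transcription factor strongly induced by glucocorticoids, had 10.94 and 11.13 in NNK-treated C3H, against 9.32 and 10.74 in untreated C3H. Its difference was 1.01 ± 0.33 and was carried mainly by the untreated array at 9.32. Tsc22d3 and Fkbp5 differed by 0.44 and 0.41 in that week. None of the 9 members passed the test (limma, background 0.0936%, with adjusted p 0.187 to 0.34 for these 3). In that week 4 of 9 had an unadjusted p under 0.05, as did 2125 of the 14953 genes tested.

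The difference between the strains' NNK changes, A/J minus C3H, was tested directly. Of 9 members 0 passed, where 1.13% of all genes did. By limma 2 had an unadjusted p under 0.05, as did 2715 of the 14953 genes tested. These 2 were Fkbp5 at 0.27 ± 0.11 (adjusted p 0.19) and Dusp1 at -0.40 ± 0.19 (0.267). Mt1 and Mt2 were at 0.22 ± 0.11 and 0.29 ± 0.16 (SE; adjusted p 0.284 and 0.343). The rise of the metallothioneins in A/J is thus not shown to differ from their change in C3H.

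Among untreated lungs, 4 of 9 members were lower in A/J than in C3H and 0 were higher, where 36.3% of all genes were lower and 19.8% higher. The 4 were Mt2, Zbtb16, Errfi1 and Sgk1. The median difference of the 7 glucocorticoid members was -0.18, beside -0.039 for all genes. As 56.1% of the genes tested differed between the strains in either direction, a count of this size is near the background. No member was free of overlap between the strains' 10 arrays, as 10.3% of all genes were.

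Mt2 had 11.01 to 12.29 (median 11.53) in the 10 untreated A/J arrays and 11.95 to 12.25 (median 12.13) in the 10 untreated C3H arrays. Below every C3H array lay 8 of the 10 A/J arrays, and the other 2, array 2 at week 0 and array 2 at week 3, lay above all of them. The difference was -0.52 ± 0.10 (SE; limma adjusted p 0.000149). It was -0.11, -0.27, -0.71, -1.08 and -0.45 at weeks 0, 3, 6, 9 and 12, and passed at weeks 6 and 9. Mt1, the neighbour of Mt2 on chromosome 8, differed by 0.06 ± 0.07 (adjusted p 0.496), with overlapping arrays in both strains.

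Sgk1, a kinase that raises epithelial sodium uptake, had 10.67 to 10.90 (median 10.80) in untreated A/J and 10.86 to 11.05 (median 11.01) in untreated C3H. Below all C3H arrays lay 9 of the 10 A/J arrays, and the last one lay above only 1 of them. The difference was -0.20 ± 0.04 (SE; limma adjusted p 0.000147). Its sign was the same at each of the 5 weeks, between -0.11 and -0.27.

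Errfi1, an inhibitor of the EGF receptor, had 11.67 to 12.52 (median 11.94) in untreated A/J and 12.08 to 12.43 (median 12.25) in untreated C3H. Below all C3H arrays lay 7 of the 10 A/J arrays, and 1 array at week 9 lay above them. The difference was -0.24 ± 0.04 (SE; limma adjusted p 1.1e-05). By week it was -0.26, -0.48, -0.35, 0.19 and -0.30, so week 9 ran the other way.

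Zbtb16 differed between untreated strains by -0.61 ± 0.15 (SE; limma adjusted p 0.00113), a level 0.654 times that of C3H. At week 0 it had 9.30 and 10.18 in A/J, against 10.56 and 10.61 in C3H. At week 12 it had 10.75 and 11.04 in A/J, against 10.63 and 11.53 in C3H. The difference was -0.91 ± 0.23 over weeks 0 and 3 (limma adjusted p 0.00363, background 29% downward) and -0.42 ± 0.19 over weeks 6 to 12 (adjusted p 0.0743, background 28.6% downward), and the change between the spans did not pass (adjusted p 0.379, background 2.55%). Dusp1 differed by -0.18 ± 0.12 over the 5 weeks, which did not pass (adjusted p 0.223). Split into spans, a division chosen after the values had been seen and used for Zbtb16 above too, Dusp1 differed by -0.71 ± 0.19 over weeks 0 and 3 (adjusted p 0.00568) and by 0.18 ± 0.16 over weeks 6 to 12 (adjusted p 0.375). That shift of 0.88 ± 0.25 was just short of the threshold (adjusted p 0.056).

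Fkbp5, Tsc22d3 and Klf9 gave differences of -0.15, -0.07 and -0.01 that did not pass (limma adjusted p 0.0664 to 0.817). Fkbp5 gained a call in 7 of 36 fits without 1 array (-0.20 to -0.10 over the 36, adjusted p 0.0139 to 0.194) and in 0 of 9 other settings (-0.16 to -0.03, adjusted p 0.0628 to 0.775). The arrays were array 2 at week 3, array 2 at week 9 and array 1 at week 12 of untreated A/J, and array 2 at week 0, array 1 at week 6, array 2 at week 9 and array 2 at week 12 of untreated C3H. The 4 calls were kept in 36 of 36 fits without 1 array and in 10 of 10 other settings.

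**Figure D3:**
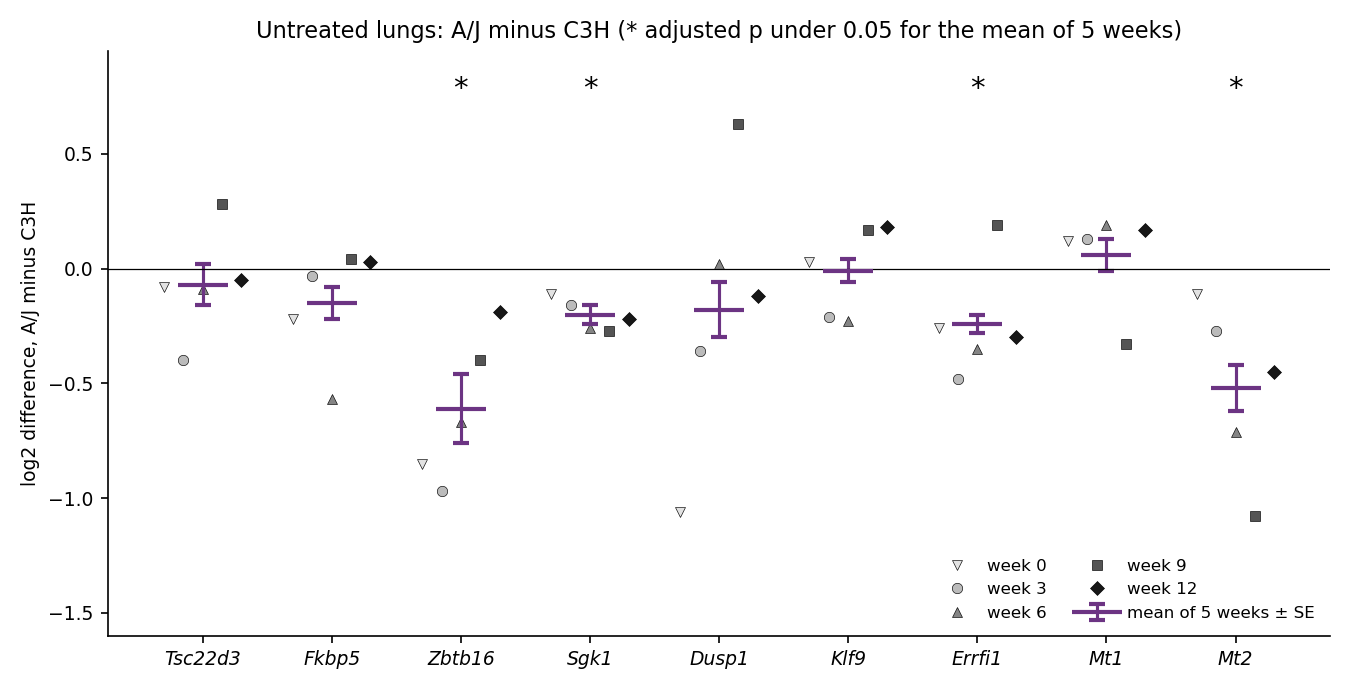
Log2 difference between untreated A/J and untreated C3H lungs (vertical axis, A/J minus C3H) for the 9 members. Small symbols are the 5 weeks, each from 2 against 2 arrays, bars are the mean over weeks ± SE, and an asterisk marks an adjusted p under 0.05. Zbtb16, Sgk1, Errfi1 and Mt2 are marked, at -0.61, -0.20, -0.24 and -0.52.

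Among the related lists, 5 of 10 receptor and ligand genes and 10 of 20 zinc and metal genes were called between the untreated strains, no larger a share than the 56.1% of all genes (36.3% lower and 19.8% higher), so these counts are not a result about the lists. Of 10 genes of the receptor and ligand supply 1 was higher and 4 lower in A/J. Hsd11b1, which regenerates active glucocorticoid, differed by -0.31, the inactivating enzyme Hsd11b2 by -0.26, the coactivator Ncoa1 by -0.17 and the corepressor Nrip1 by 0.20, while Nr3c1 differed by 0.00 (adjusted p 0.998). Of 20 zinc and metal genes 4 were higher and 6 lower. Mtf1 differed by -0.48, Slc39a4 by -0.29, the zinc importer Slc39a14 by -0.25 and Gclc by 0.27. Of 29 other glucocorticoid targets 7 were higher and 13 lower, led by the sodium channel subunit Scnn1a (-0.42), Anxa1 (0.39), the transcription factor Foxo1 (-0.33) and Lcn2 (-0.68). Of 11 clock genes 1 was higher, the activator Arntl at 0.66, and 8 were lower, with the output factor Dbp at -0.84, Per2 at -0.90 and Per3 at -0.51. The 3 immediate-early genes called were lower in A/J: Egr1 (-0.84), Fosb (-0.80) and Fos (-0.72). The means of these 2 lists differed mainly at the early weeks. At weeks 0 and 3 the clock list had a median of 9.95 in untreated A/J and 10.68 in untreated C3H. At weeks 6 to 12 it had 10.68 and 10.73. The immediate-early list had 10.1 in A/J and 11.16 in C3H at weeks 0 and 3, then 10.75 and 10.57. Of 10 acute-phase genes 1 was higher and 2 lower, with Hp at 0.26, Lcn2 as above and Lrg1 at -0.59.

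In the NNK-treated lungs 6 of 9 members differed between the strains, 5 lower and 1 higher in A/J (background 53.3% in all, 29.8% lower and 23.5% higher). Zbtb16 (-0.68), Sgk1 (-0.21), Errfi1 (-0.24) and Mt2 (-0.33) were again lower, Dusp1 was lower by limma (-0.36, adjusted p 0.0286), and Mt1 was higher (0.26, adjusted p 0.00642). These 16 arrays share no array with the untreated comparison. The week 3 group alone had 7 of 9 members lower in A/J, where 14.9% of all genes were. Zbtb16 there had 8.97 and 9.46 in A/J, against 10.94 and 11.13 in C3H, a difference of -1.82 ± 0.33 (limma adjusted p 0.000273). Dusp1 differed by -1.14, Mt2 by -0.87, Tsc22d3 by -0.61, Errfi1 by -0.44, Sgk1 by -0.34 and Klf9 by -0.32. At week 12, 2 members were higher in A/J, Fkbp5 by 0.50 and Mt1 by 0.45, where 9.37% of all genes were. The lower means of Zbtb16 and Dusp1 in A/J did not hold at every week. At week 12 Zbtb16 had 10.82 and 10.91 in A/J, against 10.42 and 10.50 in C3H. At week 9 Dusp1 had 13.32 and 13.39 in A/J, against 12.84 and 12.89 in C3H. Neither of these weekly differences was called.

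Members also moved over the weeks. In untreated A/J, 6 of 9 members varied among weeks 0, 3, 6, 9 and 12 by limma's F test, where 26.8% of all genes did: Tsc22d3, Zbtb16, Dusp1, Klf9, Errfi1 and Mt2. The call of Mt2 (adjusted p 0.048) was lost in 27 of 36 fits without 1 array (0.00621 to 0.156), and that of Dusp1 (0.0107) without either array of untreated A/J at week 0 (0.0528 and 0.0596). Weeks 6 to 12 were then set against weeks 0 and 3, the division chosen after the values had been seen, and the later comparisons of weeks 6 to 12 with week 3 share that choice. At weeks 6 to 12, 6 members were higher (Tsc22d3, Fkbp5, Zbtb16, Dusp1, Klf9 and Errfi1) and Mt2 was lower, where 19% of all genes were higher and 7.49% lower. The median change of the 7 glucocorticoid members was 0.42, beside 0.04 for all genes.

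Zbtb16 had 10.91 and 11.05 at week 6, 11.03 and 11.06 at week 9 and 10.75 and 11.04 at week 12, against 9.30 and 10.18 at week 0 and 8.96 and 9.16 at week 3. The 6 later arrays all lay above the 4 earlier ones. The change was 1.57 ± 0.21 (SE), or 2.97-fold, with a limma adjusted p of 2.81e-05.

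Tsc22d3 encodes GILZ, a leucine-zipper protein that carries much of the anti-inflammatory action of glucocorticoids. It had 10.70 and 10.88 at week 6, 10.86 and 10.88 at week 9 and 10.41 and 10.69 at week 12, against 9.76 and 10.03 at week 0 and 9.54 and 9.73 at week 3. Again the spans did not overlap, and the change was 0.97 ± 0.14 (SE), or 1.96-fold (limma adjusted p 4.14e-05).

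Errfi1 had 11.92 to 12.52 (median 12.09) in the 6 later untreated A/J arrays and 11.67, 11.70, 11.86 and 11.88 in the 4 earlier ones. It peaked at week 9, with 12.39 and 12.52, and changed by 0.39 ± 0.05 (SE; limma adjusted p 4.7e-05). Klf9, a Krüppel-like factor under both glucocorticoid and thyroid hormone control, had 11.55 to 11.94 (median 11.64), against 11.04, 11.13, 11.32 and 11.57, with 5 of 6 later arrays above all earlier ones. It changed by 0.42 ± 0.07 (SE; limma adjusted p 0.000201).

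Dusp1 was lowest at week 0, at 11.97 and 12.04, and highest at week 9, at 13.35 and 13.44. Its change of 0.62 ± 0.18 (limma adjusted p 0.0131) fell to 0.46 (adjusted p 0.0925) without array 1 of untreated A/J at week 3. Fkbp5 changed by 0.33 ± 0.10 (adjusted p 0.0181), and the call was lost without each of 4 single untreated A/J arrays (array 2 at week 0, array 1 at week 3, array 2 at week 9 and array 1 at week 12), at 0.25 to 0.30 (adjusted p 0.0541 to 0.111). Mt2 changed by -0.49 ± 0.15 (adjusted p 0.0179), but by -0.31 without array 2 at week 0, the one with skin genes, and by -0.29 without array 2 at week 3, the one with high Saa3 (adjusted p 0.157 and 0.138). Mt1 changed by -0.02 ± 0.10 and Sgk1 by -0.09 ± 0.06, neither called. In 4 of 9 members (Tsc22d3, Fkbp5, Zbtb16 and Errfi1) there was no overlap between the spans with the later arrays higher, where 4.65% of all genes did so. For Fkbp5 the gap was narrow, with a lowest later and a highest earlier level that both round to 8.03.

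NNK-treated A/J gave a separate set of arrays, in which weeks 6 to 12 were set against week 3 alone, as there is no week 0. The steps of the 2 A/J arms were not tested against each other. Set against week 3 alone, untreated A/J had 4 members higher and 0 lower by limma. Among all genes tested, 666 were higher and 373 lower in that contrast. In NNK-treated A/J 5 members were higher at weeks 6 to 12 than at week 3, where 1.95% of all genes were, and 0 were lower (background 0.963%). Zbtb16 had 10.55 to 11.11 (median 10.82), against 8.97 and 9.46 at week 3, a change of 1.61 ± 0.27 (limma adjusted p 0.00107). Tsc22d3 had 10.61 to 10.78 (median 10.70), against 9.70 and 10.04, a change of 0.83 ± 0.17 (adjusted p 0.00704). In both genes the later arrays all lay above the week 3 arrays.

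Dusp1 changed by 0.99 ± 0.22 (adjusted p 0.013), Klf9 by 0.57 ± 0.08 (adjusted p 0.000317) and Errfi1 by 0.38 ± 0.07 (adjusted p 0.00283) in that arm. Fkbp5 had 8.33 to 8.72, against 7.94 and 8.16, without passing the test (0.42 ± 0.12, limma adjusted p 0.069), and gained a call without array 2 of NNK-treated A/J at week 6 (0.47, adjusted p 0.0365) or either untreated C3H array of week 9 (0.42, 0.0432). Mt2, lower at the later weeks in untreated A/J, was at 0.46 ± 0.19 here (adjusted p 0.208), Mt1 at 0.20 ± 0.12 (0.459) and Sgk1 at 0.03 ± 0.07 (0.895). In 5 of 9 members (Tsc22d3, Fkbp5, Zbtb16, Klf9 and Errfi1) the later arrays were higher with no overlap, where 8.41% of all genes did so. With 2 arrays at week 3, single arrays weighed heavily. Without array 1 of that group Tsc22d3 was at 0.66 (adjusted p 0.208) and Zbtb16 at 1.36 (0.0807), and without array 2 Dusp1 was at 0.61 (0.356) and Errfi1 at 0.34 (0.08). Over both A/J arms, the 12 arrays of weeks 6 to 12 all lay above the 6 of weeks 0 and 3 for Tsc22d3, Zbtb16 and Errfi1, where 0.749% of all genes did so.

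The step was also examined in C3H. By the F test over weeks 0 of 9 members varied in untreated C3H (limma, background 0.201%). Before adjustment 5 had a p under 0.05, as did 1337 of the 14953 genes tested. Without array 2 of untreated C3H at week 3 Zbtb16 was called (adjusted p 0.00704). Between the spans 3 members were higher at weeks 6 to 12, where 0.314% of all genes were. These were Tsc22d3 (0.68 ± 0.14, adjusted p 0.0171), Zbtb16 (1.08 ± 0.21, 0.0154) and Klf9 (0.29 ± 0.07, 0.0429). Against week 3 alone, the baseline of the NNK-treated arms, limma called 0 of 9 members and 0 of all genes in untreated C3H. In that contrast 5 members and 1437 of all genes had an unadjusted p under 0.05.

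Zbtb16 in untreated C3H had 11.38 and 11.91 at week 6, 11.26 and 11.62 at week 9 and 10.63 and 11.53 at week 12, against 10.56 and 10.61 at week 0 and 9.32 and 10.74 at week 3. The spans overlapped, since 1 week 12 array lay below the higher week 3 array. All 3 calls were lost without either array of week 0, array 1 of week 3, array 2 of week 6, array 1 of week 9 or array 1 of week 12. Zbtb16 then lay between 0.72 and 1.09 (adjusted p 0.0512 to 0.211). Klf9 was the least stable, with its call lost in 17 of 36 such fits.

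In NNK-treated C3H 0 of 9 members were called between weeks 6 to 12 and week 3 by limma, where 5.73% of all genes were. Unadjusted, 1 (Mt1, -0.31) had a p under 0.05, as did 3397 of the 14953 genes tested. Without array 2 of NNK-treated C3H at week 3, Mt1 was called at -0.56 (adjusted p 0.0257). Zbtb16 there peaked at week 6, with 11.65 and 11.73, and was lowest at week 12, with 10.42 and 10.50, against 10.94 and 11.13 at week 3. Fkbp5 followed the same course, with 8.65 and 8.71 at week 6 and 7.79 and 7.92 at week 12, against 8.21 and 8.39 at week 3.

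The difference between the strains in this step was tested in the NNK-treated arms, where 1.58% of all genes had a larger step in A/J. Zbtb16 rose by 1.53 ± 0.38 more in A/J (limma adjusted p 0.0327) and Klf9 by 0.45 ± 0.12 more (adjusted p 0.0433), and 9 of 9 members were positive with a median of 0.51, beside -0.01 for all genes. Zbtb16 lost its call in 5 of 36 fits without 1 array (1.28 to 1.77 over all 36, adjusted p 0.0101 to 0.259) and Klf9 in 15 (0.41 to 0.49, adjusted p 0.0311 to 0.277). Dusp1, at 1.03 ± 0.31 (adjusted p 0.0749), gained a call without array 1 of NNK-treated A/J at week 3, week 6 or week 12 (1.42, 1.16 and 1.15; adjusted p 0.041, 0.0408 and 0.0489). Mt1 and Errfi1 gained one without array 2 of NNK-treated C3H at week 3 (0.76 and 0.38, adjusted p 0.0176 and 0.0364). The arrays concerned for Zbtb16 were both of NNK-treated A/J at week 3, and in NNK-treated C3H array 1 at week 3, array 1 at week 6 and array 2 at week 12. In the untreated arms, the matching difference from week 3 had 0 of 9 members called by limma (background 0.281%). There 1, Errfi1 at 0.32, had an unadjusted p under 0.05, as did 1495 of the 14953 genes tested.

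**Figure D4:**
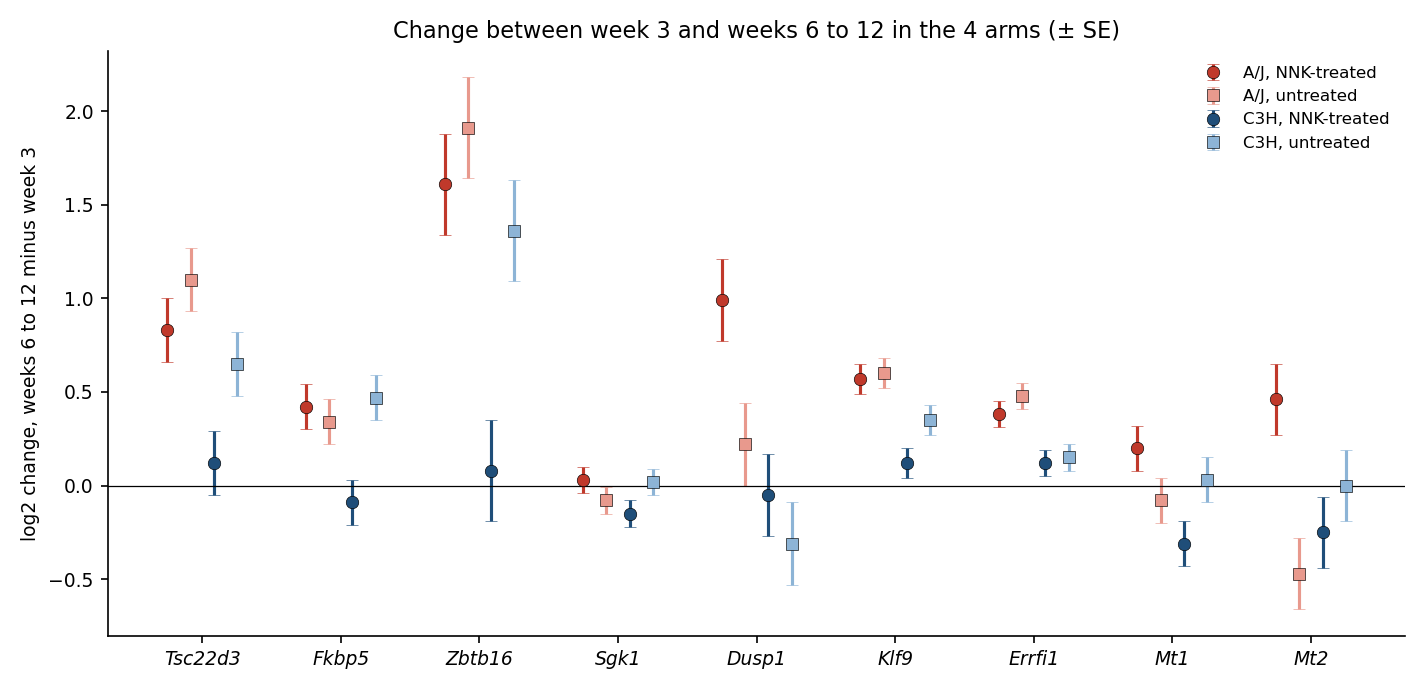
Log2 change between week 3 and weeks 6 to 12 (vertical axis, later minus earlier) of the 9 members in the 4 arms, each from 6 against 2 arrays, with bars of 1 SE. Circles are NNK-treated and squares untreated, A/J in red and C3H in blue. Zbtb16 is at 1.61 in NNK-treated A/J, 1.91 in untreated A/J, 0.08 in NNK-treated C3H and 1.36 in untreated C3H.

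Clock genes moved beside the members in A/J. In untreated A/J 9 of 11 clock genes were higher at weeks 6 to 12 than at weeks 0 and 3, and 2 were lower. Their median was 0.98, and of all genes 19% were higher and 7.49% lower. Per1, itself a glucocorticoid target, rose by 1.85, Dbp by 1.49, Per2 by 1.46 and Per3 by 1.20, while Arntl changed by -1.21 and Clock by -0.39. In NNK-treated A/J, from week 3, 8 rose and 2 fell (median 0.96), with Dbp at 1.67, Per1 at 1.99 and Arntl at -1.74. In that arm 1.95% of all genes rose and 0.963% fell. Per1 had 8.94 to 9.95 in the 6 A/J arrays of weeks 0 and 3, and 10.91 to 11.68 in the other 12 A/J arrays and 10.93 to 11.65 in the 18 C3H arrays. In untreated C3H 0 of 11 clock genes were called (median 0.08) and in NNK-treated C3H 2 rose (median 0.16). Of all 14953 genes tested, 115 were called in untreated C3H against weeks 0 and 3, in either direction. Against week 3, 857 (5.73%) were called in NNK-treated C3H and 0 in untreated C3H. The part of the clock genes' course in the members' values was not tested, and the hour of dissection is not given in the labels used here, which name normal light and dark housing.

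Other glucocorticoid targets were called over the same weeks in A/J, where 19% of all genes rose and 7.49% fell in untreated and 1.95% rose and 0.963% fell in NNK-treated lungs. In untreated A/J 14 of 29 rose and 2 fell (median 0.19), with Cebpb, a transcription factor, at 0.47, Nfkbia, the inhibitor of NF-kB, at 0.44, and Gjb6 at -0.65. In NNK-treated A/J 8 rose and 1 fell (median 0.23), among them Angptl4, an inhibitor of lipoprotein lipase, at 1.09 and Pdk4, a brake on glucose oxidation, at 1.26. In both C3H arms 0 of 29 were called (medians 0.05 with NNK and 0.15 untreated), beside the C3H shares of all genes given above. The direct test of the strains' steps in the NNK-treated arms called 5 of 29 upward and 1 downward in this list. Among clock genes it called 7 of 11 upward and 2 downward, and among immediate-early genes 7 of 12 upward. Of all 14953 genes tested, it called 236 upward (1.58%) and 198 downward. Immediate-early genes rose in part, 4 of 12 in untreated A/J (Ccn1, Btg2, Zfp36 and Ier3, at 0.31 to 0.70) and 4 of 12 in NNK-treated A/J (Atf3, Junb, Nr4a1 and Ccn1, at 0.85 to 2.02). Of 10 receptor and ligand genes 1 rose and 1 fell in untreated A/J, namely Nr3c2, the mineralocorticoid receptor, by 0.21 and Ncoa1 by 0.11. Of 20 zinc and metal genes 3 rose and 3 fell, with no larger a share rising than among all genes. They were led by Cp (-0.33), Gclc (-0.29), Slc30a2 (0.26) and the zinc exporter Slc30a1 (0.24).

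Some pairs of members also varied together between the 2 arrays of a group, and this was measured apart from the group means. Over the 18 differences between array 1 and array 2, 3 of 36 pairs of members passed a permutation test by both measures after Benjamini-Hochberg adjustment over the 36. Mt1 and Mt2 had r = 0.79 (permutation adjusted p 0.00264) and rho = 0.69 (0.0344). Without the 2 groups farthest from the median in the gene named first, here Mt1, r was 0.63. Tsc22d3 and Zbtb16 had r = 0.76 (0.00264) and rho = 0.66 (0.0434), and r was 0.68 without 2 groups. That value kept untreated C3H at week 3, where Zbtb16 differed by -1.42. Zbtb16 and Klf9 had r = 0.76 (0.00264) and rho = 0.71 (0.0344), and r was 0.69 without 2 groups. The 2 genes differed in the same direction in 13 of 18 groups for Mt1 and Mt2. For each of the other 2 pairs they did so in 11 of 18. How often other pairs of genes on the array vary together in this way was not tested. No pair of a metallothionein and a glucocorticoid member passed. The residual SD within groups was 0.288 in A/J and 0.427 in C3H for Zbtb16, 0.143 and 0.292 for Tsc22d3 and 0.298 and 0.194 for Mt2, against a median of 0.096 over all genes tested, so these members varied more between the arrays of a group than the typical gene.

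**Figure D5:**
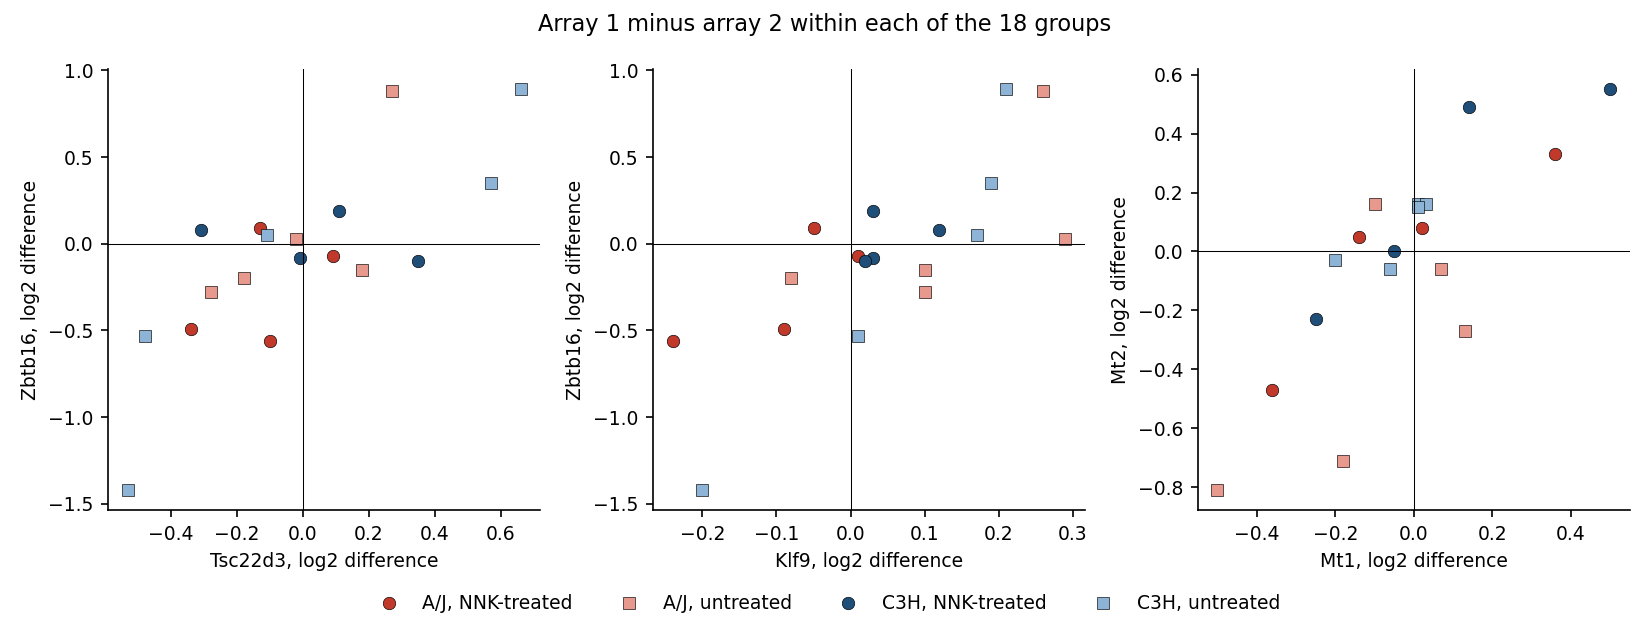
Difference between array 1 and array 2 (log2, both axes) in each of the 18 groups for Tsc22d3 and Zbtb16 (left), Klf9 and Zbtb16 (middle) and Mt1 and Mt2 (right). Circles are NNK-treated and squares untreated groups, A/J in red and C3H in blue. Points rise from lower left to upper right in the 3 panels, with r of 0.76, 0.76 and 0.79.

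Of the 14944 tested genes that are no member, the 3 whose 18 group means followed the mean of the 7 glucocorticoid members most closely were Map3k6 (r = 0.95), Rgcc (r = 0.94) and Foxo3 (r = 0.92). Map3k6 and Foxo3 stood in the list of other glucocorticoid targets. Those most like the mean of Mt1 and Mt2 were Sowahb (r = 0.87), Atp10b (r = 0.86) and Zbp1 (r = 0.83). These correlations are over group means that share strain, treatment and week, and are given as a description.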

How the data were processed

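The labels describe total RNA of mouse lung on Affymetrix arrays. The authors deposited linear-scale intensities, a single value per probe set and array. The submitters' processing notes name PLIER and Affymetrix Expression Console, without saying what each was used for. Versions, settings and the genome build are not given in the sources used here. Array medians were 285 to 347, and precision is limited by how many arrays there are. Intensities were converted to log2(intensity + 16) and quantile-normalized, since array medians spanned 0.268. Of 35556 probe sets 21789 had 1 symbol, and each of 19938 genes was represented by its brightest probe set on average. Genes below the 25th percentile in mean level were dropped, and the other 14953 were tested with limma 3.58.1 in R 4.3.3, with 18 group means, 18 residual degrees of freedom and Benjamini-Hochberg adjustment over all genes tested. The NNK change is the mean of 4 weekly differences and the strain difference the mean of 5. The fit was tested on simulated data. The named genes are the 9 members, up to 4 called genes of each list with the smallest p in each main comparison, and the 3 most similar genes, with a few other list genes named after their values were seen. The members and lists were chosen with earlier results of these data known. Hsp90ab1 and Npas2 were not measured under 1 symbol. Correlations over differences used 100000 permutations. Array numbers came from the labels, and were not used to pair the groups in the main fit. Of 153 pairs of groups 47 had a correlation of deviations over 0.1 (median 0.02, range -0.38 to 0.42). That median cannot exclude that some groups were handled together by array number. Alternatives covered normalization, pseudocount, filter, probe set, variance model, array weights, a block for array number, each strain alone, single arrays and the arrays with skin genes.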

Additional observations from a re-analysis of the deposited data

Results flagged for a closer look

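Some genes differed between the strains in a direct test of the difference, here 2 list genes in their NNK change and 2 members in their step over the weeks. List genes that passed the test of the step are counted in the report. The NNK change was larger in A/J than in C3H by 0.78 (SE 0.18, limma adjusted p 0.0407) for Mfsd2a and by 0.61 (SE 0.14, adjusted p 0.039) for Lcn2, 2 of the other glucocorticoid targets. Of all genes 1.13% passed that test, and 5 genes did without week 6 and the skin-bearing array. Whether these 2 calls hold under the alternatives was not examined. The step between week 3 and weeks 6 to 12 in NNK-treated lungs was larger in A/J by 1.53 (SE 0.38, adjusted p 0.0327) for Zbtb16 and by 0.45 (SE 0.12, adjusted p 0.0433) for Klf9. This span was chosen after the data were seen. Groups of 2 arrays are too small to test for a single array far from the others.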

How the results depend on the processing

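Counts of called members are given here against those in the text. After NNK in A/J the count was 3, and 1 with each strain's own arrays and 1 without week 6 and the untreated A/J week 0 array with skin genes, with Mt1 the gene kept in both, while calls over all genes were 483 and 492 against 1502. The F test over weeks in untreated C3H gave 0, and 1 without normalization, 1 with trended robust variances, 4 with array weights and 1 with the array median as a covariate, an alternative added after seeing the data. Weeks 6 to 12 against weeks 0 and 3 gave 7 in untreated A/J and 4 with array weights. In untreated C3H they gave 3, and 5 with array weights and 0 without week 6. The strain difference of the step in NNK-treated arms gave 2, and 0 with no filter, 1 with trended robust variances and 0 with array weights. Without 1 array, counts ran over 2 to 4 (NNK in A/J), 0 to 0 (NNK in C3H and the difference of the changes), 4 to 5 (untreated strains), 4 to 6 and 0 to 1 (F test, A/J and C3H), 5 to 7 and 0 to 4 (untreated spans, A/J and C3H), 3 to 6 and 0 to 1 (NNK-treated spans) and 0 to 3 (their difference). In those fits the lone array of a group is assumed to vary like the other groups. With array number as a replicate block the F test in untreated A/J gave 5 instead of 6, and the other counts were as in the text, at 3 for NNK in A/J and 4 for the untreated strains. Calls over all genes also moved by over 1.5 times elsewhere. With array weights they were 675 against 1502 for NNK in A/J, 31 against 12 for NNK in C3H, 111 against 169 for the difference of the changes, 1605 against 4008 and 425 against 30 for the F tests in A/J and C3H, 1224 against 3959 and 472 against 115 for the untreated spans and 518 against 857 for the NNK-treated span in C3H. Without week 6 and the skin-bearing array they were 2 for NNK in C3H, 5 for the difference of the changes, 1101 for the F test in A/J, 1514 for the untreated span in A/J, 242 against 857 for the NNK-treated span in C3H and 141 against 434 for the difference of the spans. With each strain's own arrays they were 41 for NNK in C3H, 980 and 76 for the F tests, 2374 and 251 for the untreated spans, and 143 against 435 and 1409 for the NNK-treated spans. With no filter they were 97 for the difference of the changes, 5 for the F test in C3H, 75 for the untreated span in C3H, 566 for the NNK-treated span in C3H and 220 for the difference of the spans. The filter at the 50th percentile gave 2532 for the F test and 2397 for the untreated span in A/J, and the array median as a covariate gave 178 for the untreated span in C3H. Fkbp5 was left out by the filter at the 50th percentile. No called value turned its sign, and a change of sign in a value called under neither setting was not counted. The cause was not tested. Fitting 1 strain at a time gives no strain difference.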
